A study of Mus musculus with 12 samples.

Results

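The genes described here are the 5 perilipins, Plin1, Plin2, Plin3, Plin4 and Plin5, and 5 other genes of the lipid droplet, Cidea, Cidec, Fitm1, Fitm2 and Bscl2, in inguinal white adipose tissue (iWAT) of the mouse. They were taken by symbol from the deposited gene tables. All 10 were among the 24091 genes of the files, and all 10 were among the 15413 genes tested, those with an FPKM (fragments per kilobase of transcript, scaled to library size) over 0.1 in at least 50% of the libraries.

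Fat cells store triglyceride in lipid droplets, which bud from the endoplasmic reticulum and are enclosed by a single layer of phospholipid. Perilipins coat that surface and control the access of lipases to the stored fat. CIDE proteins sit where droplets touch and pass lipid from the smaller to the larger droplet, which enlarges it. Seipin, the product of Bscl2, and the FIT proteins act where droplets form at the endoplasmic reticulum. White fat cells hold a single large droplet, while brown and beige fat cells hold many small ones.

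The RNA came from C57BL/6 mice in 4 groups of 3 libraries each. bBMKO mice carried floxed alleles of the clock gene Bmal1 together with the Prx1-Cre transgene, and bBMCtr mice, their littermates, carried the floxed alleles without Cre, so both genotypes share the floxed Bmal1. Prx1-Cre acts in the progenitors and in the mature fat cells of the inguinal depot, so the deletion is not limited to one cell type. Each genotype was kept at ambient temperature (22 °C in the sample records and 21 °C in the methods) or acclimated to 10 °C for 2 weeks. The figure legends give mice of 6 weeks at zeitgeber time 3, and the methods give 10 to 12 weeks of age for cold acclimation. The legends give 3 mice per group, name male mice in one place and female mice in another, and the labels do not name the animals. The p-values measure the spread between these libraries. The genotype comparisons ask how loss of Bmal1 changes the depot at each temperature, and the temperature comparisons ask how cold changes it in each genotype.

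Libraries held 17887795 to 21436282 counts. Xist, the RNA of the inactive X chromosome, was at 1310 to 1520 CPM (counts scaled to library size after TMM normalization) in the 6 ambient libraries and at 0.526 to 2.99 CPM in the 6 cold ones. Ddx3y, of the Y chromosome, was at 0 to 4.53 CPM in ambient and 97.3 to 128 CPM in cold libraries. The ambient libraries thus read as female and the cold ones as male. Temperature and sex cannot be told apart in any value below that compares the temperatures, the interaction included. By the ages given above, age may differ with temperature as well. Each genotype comparison lies within 1 temperature, and so within 1 sex by these 2 genes. Arntl, the gene of Bmal1, was higher in bBMKO by 1.14 (ambient) and 1.33 (cold) on the log2 scale (adjusted p of 0.0638 and 0.0101 by edgeR). The paper, in contrast, reports loss of the Bmal1 transcript in iWAT of these mice. Counts were read per gene and not per exon, so those of Arntl check no label. The cause of the higher Arntl counts was not tested. Nr1d1, a target of Bmal1, fell by 0.90 on the log2 scale in ambient bBMKO and fell by 1.58 in cold bBMKO. Markers of other tissues varied between libraries. The summed level of 12 skeletal muscle markers ran from 48.8 to 7940 CPM, that of 12 lymphocyte markers from 16.7 to 1360 CPM, and that of the mammary epithelium markers was 851 to 1660 CPM in the ambient libraries and 4.02 to 10.1 CPM in the cold ones. All 12 fat cell markers were read in every library. Their summed level was 17400 to 22100 CPM in ambient bBMCtr, 24200 to 29500 in ambient bBMKO, 27400 to 33700 in cold bBMCtr and 35200 to 43600 in cold bBMKO, and these ranges did not overlap except between ambient bBMKO and cold bBMCtr. In bulk tissue, fewer cells of a type and less RNA per cell cannot be told apart, and that holds for each result below.

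**Figure D1:**
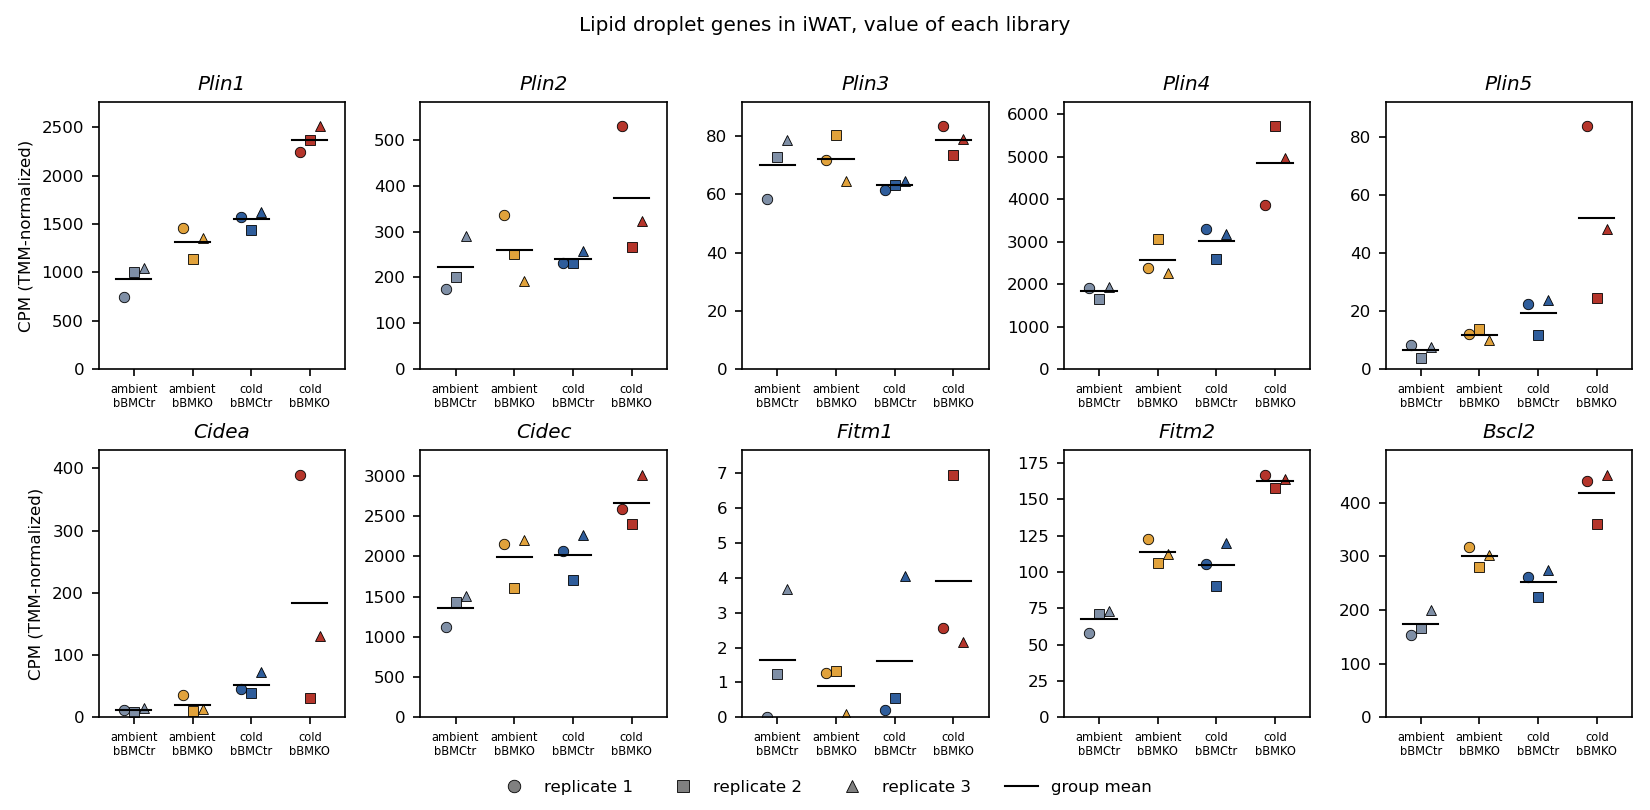
CPM of each of the 10 genes in each of the 12 libraries, by group, on a linear axis from 0 that differs between panels; points are libraries, their shape gives the replicate number and the line is the group mean. On this CPM scale all 10 genes had their highest value in a cold bBMKO library. The TMM factors, which lift CPM where they are low, were 0.8702 to 0.9156 in cold bBMKO and at least 0.9737 elsewhere. On FPKM the highest value of Plin3 was in replicate 3 of ambient bBMCtr (25.2).

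Levels of different genes were compared per length, on FPKM. Cidec was the most abundant of the 10, with a median of 832 FPKM over the 12 libraries, and it was above Plin4, the next gene, in 12 of 12 libraries. Plin4 had a median of 338 FPKM and Plin1 a median of 295 FPKM. These neighbours were not separated: Plin4 was the higher in 8 libraries, Plin1 in 3, and in 1 library the values were tied. Plin2 followed at 89.2 FPKM, Bscl2 at 67.8 FPKM and Fitm2 at 46.6 FPKM. Plin2 was above Bscl2 in 11 of 12 libraries, and Bscl2 above Fitm2 in 12 of 12. Plin3 at 21.7 FPKM and Cidea at 18.5 FPKM changed places, with Plin3 the higher in 7 libraries and Cidea in 5. Plin5 had a median of 4.34 FPKM and was below Cidea in 12 of 12 libraries. Fitm1, at 0.976 FPKM, was the lowest, and was below Plin5 in 11 of 12 libraries.

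The spread across libraries also differed among the genes. On CPM the highest library was 47.5 times the lowest for Cidea and 22.5 times for Plin5. For Plin1, Plin2, Plin4, Cidec, Fitm2 and Bscl2 that ratio lay between 2.68 and 3.44. Plin3 was the steadiest, with a ratio of 1.42. Fitm1 had no count at all in 1 library, so no ratio was formed. Of the 10 genes, 7 had their lowest CPM in replicate 1 of ambient bBMCtr and 3 in replicate 2 of that group. Replicate 1 of ambient bBMCtr also held the highest summed lymphocyte markers (1360 CPM) and the lowest summed fat cell markers (17400 CPM), and their part in these low values was not tested.

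Among the perilipins, Plin1 and Plin4 made up most of the summed FPKM in every library. The sum over Plin1 to Plin5 was 501, 519 and 581 FPKM in ambient bBMCtr, 696, 701 and 663 in ambient bBMKO, 852, 738 and 859 in cold bBMCtr and 1010, 1200 and 1170 in cold bBMKO. No library of one group lay within the range of another. The share of Plin4 was 42.7% ± 5.18 (SD, n = 3) in ambient bBMCtr and 46.3% ± 6.64 in cold bBMKO, and that of Plin1 was 37% ± 3.95 and 39.2% ± 1.62 in the same groups. The ranges of both shares overlapped between these groups. The share of Plin3 was 4.33% ± 0.33 in ambient bBMCtr, 3.3% ± 0.239 in ambient bBMKO, 2.55% ± 0.244 in cold bBMCtr and 2.02% ± 0.235 in cold bBMKO. The ranges of this share did not overlap between any pair of groups, and since the FPKM of Plin3 itself stayed between 20 and 25.2, the shift lay in the sum. Plin5 held a share of 0.431% ± 0.176 in ambient bBMCtr and of 1.45% ± 0.899 in cold bBMKO, with single libraries of the latter at 2.42, 0.641 and 1.29%.

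**Figure D2:**
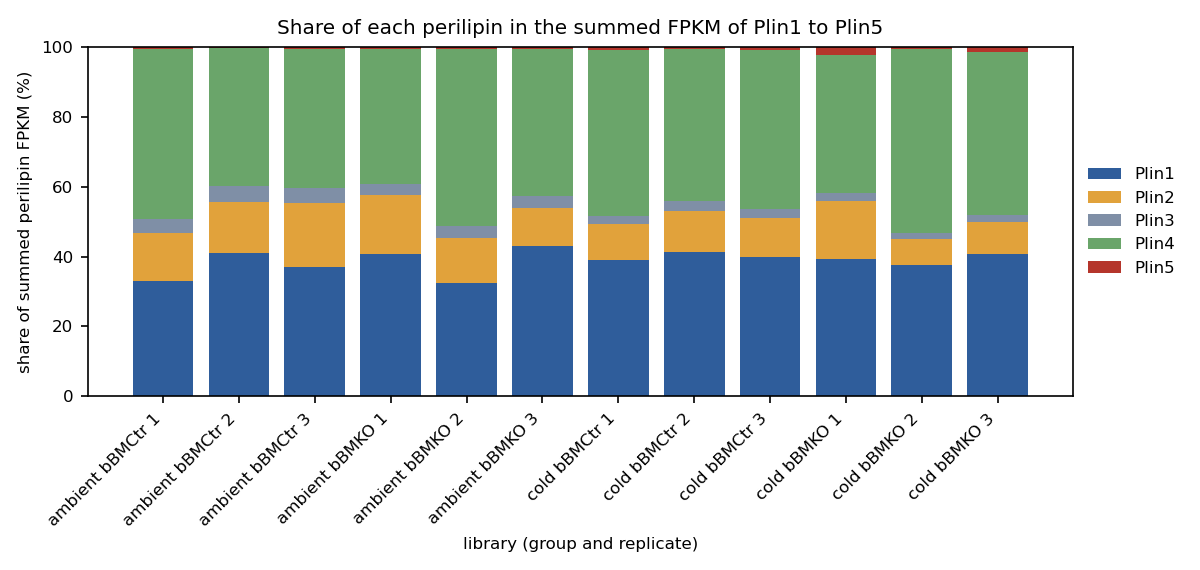
Share of Plin1 to Plin5 in their summed FPKM, in percent, stacked for each of the 12 libraries. Plin1 and Plin4 fill most of each bar, and the share of Plin3 falls from 4.33% on average in ambient bBMCtr to 2.02% in cold bBMKO.

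Plin1 (chromosome 7, 79721164 to 79732776 of mm10) encodes perilipin 1, the main coat protein of the large droplet, which holds back lipolysis at rest and releases it when phosphorylated. It was at 750.5, 1000 and 1044 CPM in the 3 ambient bBMCtr libraries and at 1460, 1141 and 1353 CPM in ambient bBMKO. Cold bBMCtr libraries had 1576, 1442 and 1626 CPM, and cold bBMKO libraries had 2241, 2364 and 2507 CPM. Every bBMKO library was above every bBMCtr library at its temperature, and every cold library above every ambient library of its genotype. A gene is said to have risen or fallen where its fold change was over 1.5, its unadjusted p under 0.05 and its Benjamini-Hochberg adjusted p under 0.25 in edgeR's quasi-likelihood test, adjusted over all 15413 genes. Plin1 rose with genotype in the cold by 0.61 on the log2 scale (standard error 0.144, adjusted p = 0.0117), and with cold by 0.73 in bBMCtr (adjusted p = 0.00621) and by 0.85 in bBMKO (adjusted p = 0.00231). At ambient temperature its difference between genotypes was 0.50 (standard error 0.143, adjusted p = 0.0861), a fold change of 1.41 that stayed under the minimum. That ambient difference passed without replicate 3 of bBMCtr (0.60) or replicate 2 of bBMKO (0.61), and the cold one no longer reached a fold of 1.5 without replicate 2 of bBMCtr (0.54) or replicate 3 of bBMKO (0.57).

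Plin4 (chromosome 17, 56100591 to 56109802) encodes perilipin 4, a coat protein found mainly in white fat cells. It was at 1908, 1662 and 1933 CPM in ambient bBMCtr and at 2396, 3059 and 2275 CPM in ambient bBMKO. After cold acclimation the bBMCtr values were 3298, 2605 and 3181 CPM and the bBMKO values 3858, 5717 and 4967 CPM. As for Plin1, no groups overlapped in any of the 4 comparisons. Plin4 rose with genotype in the cold by 0.68 (standard error 0.181, adjusted p = 0.0183), with cold in bBMCtr by 0.72 (adjusted p = 0.0219) and with cold in bBMKO by 0.91 (adjusted p = 0.00536). The ambient genotype difference of 0.49 (standard error 0.18, adjusted p = 0.162) was a fold of 1.4. Without replicate 2 of cold bBMCtr or of cold bBMKO the cold genotype difference was 0.56 and 0.54, under the fold minimum.

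Plin2 (chromosome 4, 86656565 to 86670059) encodes perilipin 2, the coat protein of small droplets in most cell types, whose protein is lost when it is not bound to lipid. It was at 175.3, 201.1 and 289.6 CPM in ambient bBMCtr and at 336.4, 252.2 and 193.3 CPM in ambient bBMKO, and these ranges overlapped. Its cold bBMCtr values were 230.8, 231.1 and 257.5 CPM, and its cold bBMKO values 529, 265.7 and 322.4 CPM. The cold bBMKO libraries were all above the cold bBMCtr libraries, with replicate 1 standing far above the other two and replicate 2 barely above the highest control. Plin2 rose with genotype in the cold by 0.63 (standard error 0.28, adjusted p = 0.102). Without replicate 1 of cold bBMKO the difference was 0.29 (adjusted p = 0.407), and the gene also no longer passed without any 1 of the cold bBMCtr libraries (0.58, 0.59 and 0.69 for replicates 1, 2 and 3) or under RLE scaling (0.62). The other differences of Plin2 were 0.23 between genotypes at ambient temperature, 0.11 with cold in bBMCtr and 0.51 with cold in bBMKO, and none passed. The last passed without replicate 1 of ambient bBMKO (0.74) or replicate 2 of cold bBMKO (0.71).

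Bmal1 binds E-boxes, and nuclear receptors such as the PPARs bind sites built from the half-site AGGTCA, so the members' promoters were read on both strands for that half-site, for the CArG box of SRF and for 2 E-boxes, CACGTG and the variant CACGTT. Windows of 300 bases, 250 before the transcription start and 50 from it on, were at hand for 9 of the 10 genes (13 windows, RefSeq, GRCm38.p6). Among the members' windows only that of Plin2 held CACGTG, whose first base lies 4 bases before the start, and it also held a half-site, on the other strand as TGACCT, 218 bases before it. CACGTG was found in 7.15% of all 32851 promoter windows and AGGTCA in 16.3%. The Plin2 window, chr4:86670010-86670309 on the minus strand, is shown for these matches, which are in capitals.
Plin2 promoter: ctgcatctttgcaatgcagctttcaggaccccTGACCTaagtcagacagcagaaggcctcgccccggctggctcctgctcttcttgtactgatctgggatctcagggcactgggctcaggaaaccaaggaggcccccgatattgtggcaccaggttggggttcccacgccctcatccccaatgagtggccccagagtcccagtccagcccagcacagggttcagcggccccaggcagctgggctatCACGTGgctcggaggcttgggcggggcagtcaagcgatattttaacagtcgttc
Plin5 and Bscl2 were the other members with a half-site. CACGTT, found in 4.68% of all windows, and the CArG box, in 1.63%, matched no window of a member. A match is a description of the letters only, and binding was not measured here.

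Plin3 (chromosome 17, 56278962 to 56290511) encodes perilipin 3, a broadly expressed protein that moves from the cytosol onto new droplets. Its CPM were 58.51, 72.94 and 78.68 in ambient bBMCtr, 71.87, 80.49 and 64.41 in ambient bBMKO, 61.63, 63.3 and 64.72 in cold bBMCtr and 83.28, 73.55 and 79.07 in cold bBMKO. The groups overlapped in every comparison except that of genotypes in the cold, where the bBMKO libraries were the higher. That difference was 0.31 (standard error 0.113, 95% interval 0.064 to 0.566, adjusted p = 0.0528), a fold of 1.24 and so under the minimum. The ambient genotype difference was 0.045 with an interval of -0.205 to 0.295, which leaves out a change of 1.5-fold in either direction. Its sign depended on the setting: it was -0.072 under scaling by library size alone and -0.084 without replicate 1 of ambient bBMCtr.

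Plin5 (chromosome 17, 56111601 to 56117548) lies next to Plin4 on the same strand and encodes perilipin 5, the coat protein of tissues that burn fat, which ties droplets to mitochondria. It was at 8.33, 3.717 and 7.539 CPM in ambient bBMCtr and at 12.11, 13.75 and 9.921 CPM in ambient bBMKO. Cold bBMCtr had 22.34, 11.97 and 23.85 CPM of Plin5, and cold bBMKO had 83.69, 24.57 and 48.5 CPM. No groups overlapped in the 4 comparisons, though the lowest cold bBMKO library, replicate 2, was within 1 CPM of the highest cold bBMCtr library. Plin5 rose with cold by 1.57 (standard error 0.45, adjusted p = 0.0408) in bBMCtr and by 2.13 (standard error 0.447, adjusted p = 0.00708) in bBMKO. Between genotypes it rose in the cold by 1.43 (standard error 0.436, adjusted p = 0.0295). The ambient difference was 0.87 (standard error 0.448, adjusted p = 0.284) and did not pass with edgeR, while DESeq2 called it (adjusted p = 0.209). With the replicate number as a block, edgeR also called that difference (1.01, adjusted p = 0.187). Without replicate 1 of cold bBMKO the cold genotype difference was still called, at 0.92 (adjusted p = 0.125).

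The first of the promoter windows of Plin5, chr17:56117499-56117798 on the minus strand of GRCm38.p6, is shown because Plin5 had, after Cidea, the largest ratio of the highest to the lowest library among the members with counts in every library. Its half-site, in capitals, begins 170 bases before the start.
Plin5 promoter: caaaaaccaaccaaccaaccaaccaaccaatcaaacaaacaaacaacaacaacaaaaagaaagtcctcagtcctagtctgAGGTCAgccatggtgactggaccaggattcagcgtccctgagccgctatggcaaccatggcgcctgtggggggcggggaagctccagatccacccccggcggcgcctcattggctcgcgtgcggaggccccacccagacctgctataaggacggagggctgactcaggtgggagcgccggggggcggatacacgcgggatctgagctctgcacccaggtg
The second window of Plin5 held another match just past its start.

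Cidec (chromosome 6, 113424634 to 113435760) encodes the CIDE protein of white fat cells, known in mice as FSP27, which enlarges droplets toward the single large one. It was at 1125, 1436 and 1504 CPM in ambient bBMCtr, 2154, 1611 and 2203 CPM in ambient bBMKO, 2069, 1704 and 2262 CPM in cold bBMCtr and 2595, 2398 and 3016 CPM in cold bBMKO. No groups overlapped in the 4 comparisons, yet Cidec passed none of them. Its differences were 0.55 between genotypes at ambient temperature (standard error 0.175, adjusted p = 0.111), 0.41 between genotypes in the cold (adjusted p = 0.0932), 0.57 with cold in bBMCtr (adjusted p = 0.054) and 0.42 with cold in bBMKO (adjusted p = 0.103). All 4 were below 1.5-fold, the largest being a fold of 1.48. Small changes of setting moved it past that minimum: with DESeq2 the change with cold in bBMCtr was 0.60 and passed. Leaving out replicate 2 or 3 of ambient bBMCtr or replicate 2 of ambient bBMKO let the ambient genotype difference pass (0.62, 0.65 and 0.70). The change with cold in bBMCtr also passed without replicate 2 or 3 of ambient bBMCtr or replicate 2 of cold bBMCtr (0.64, 0.67 and 0.69).

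Cidea (chromosome 18, 67343564 to 67367794) encodes the CIDE protein of brown and beige fat cells. It was at 11.68, 8.206 and 15.83 CPM in ambient bBMCtr and at 35.91, 9.826 and 14.21 CPM in ambient bBMKO, with replicate 1 of bBMKO alone above the controls. Cidea reached 46.08, 38.9 and 72.77 CPM in cold bBMCtr and 390, 30.77 and 130.4 CPM in cold bBMKO. The cold bBMKO libraries lay on both sides of the cold bBMCtr ones: replicate 2 was below all 3 controls, and replicates 1 and 3 were above them. Cidea rose with cold by 2.14 in bBMCtr (standard error 0.784, adjusted p = 0.1), where the groups did not overlap, and by 3.20 in bBMKO (standard error 0.804, adjusted p = 0.0168), where replicate 2 of cold bBMKO was below replicate 1 of ambient bBMKO. Between genotypes in the cold it rose by 1.81 (standard error 0.758, adjusted p = 0.0883) although the groups overlapped. Without replicate 1 of cold bBMKO that difference was 0.62 (adjusted p = 0.504), and it did not pass without replicate 1 or 2 of cold bBMCtr either (1.70 and 1.61) or with only the cold groups in the fit (1.79). The change with cold in bBMCtr did not pass without replicate 1 or 2 of ambient bBMCtr or replicate 3 of cold bBMCtr (2.13, 1.97 and 1.84). In bBMKO, the change with cold was 2.01 without replicate 1 of cold bBMKO and was still called (adjusted p = 0.0641).

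The ratio of Cidea to Cidec on FPKM set the 2 CIDE genes side by side. It was 1.54, 0.844 and 1.56% in ambient bBMCtr and 2.47, 0.9 and 0.958% in ambient bBMKO. In cold bBMCtr it was 3.29, 3.38 and 4.76%, above all 6 ambient libraries. In cold bBMKO it was 22.2, 1.9 and 6.37%, the widest spread of any group. Replicate 2 of cold bBMKO thus sat within the ambient range on this ratio while holding the highest Plin4 of the 12 libraries.

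Markers of brown and beige fat were set beside Cidea and Plin5. The list held 8 genes, Ucp1, Dio2, Cox8b, Cox7a1, Elovl3, Ppargc1a, Prdm16 and Zic1, of which 7 were tested. Its summed level was 55.7, 50.8 and 68.8 CPM in ambient bBMCtr and 183, 114 and 105 CPM in ambient bBMKO. The cold sums were 113, 115 and 392 CPM for bBMCtr and 2040, 209 and 668 CPM for bBMKO. The order of the 3 cold bBMKO libraries, replicate 1 above replicate 3 above replicate 2, was that of Cidea and of Plin5. It was not kept in ambient bBMKO, where the marker sum was highest in replicate 1 and lowest in replicate 3, Cidea was lowest in replicate 2 and Plin5 was highest in replicate 2. Replicate 2 of cold bBMKO also had a larger marker sum than replicates 1 and 2 of cold bBMCtr and less Cidea than either. Of the 7 tested, 4 rose with genotype at ambient temperature and 2 in the cold, where 3.88% and 9.67% of all genes rose, with median differences of 1.33 and 1.57 on the log2 scale. With cold 5 rose in bBMCtr, and in bBMKO 5 rose and 1 fell, against 3.48% and 6.41% of all genes that rose. Whether the share of such cells, or their RNA content, differed between libraries was not tested. The study lists Cox8b and Elovl3 among genes picked on these same samples, so the directions of these 2 are not independent evidence.

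**Figure D3:**
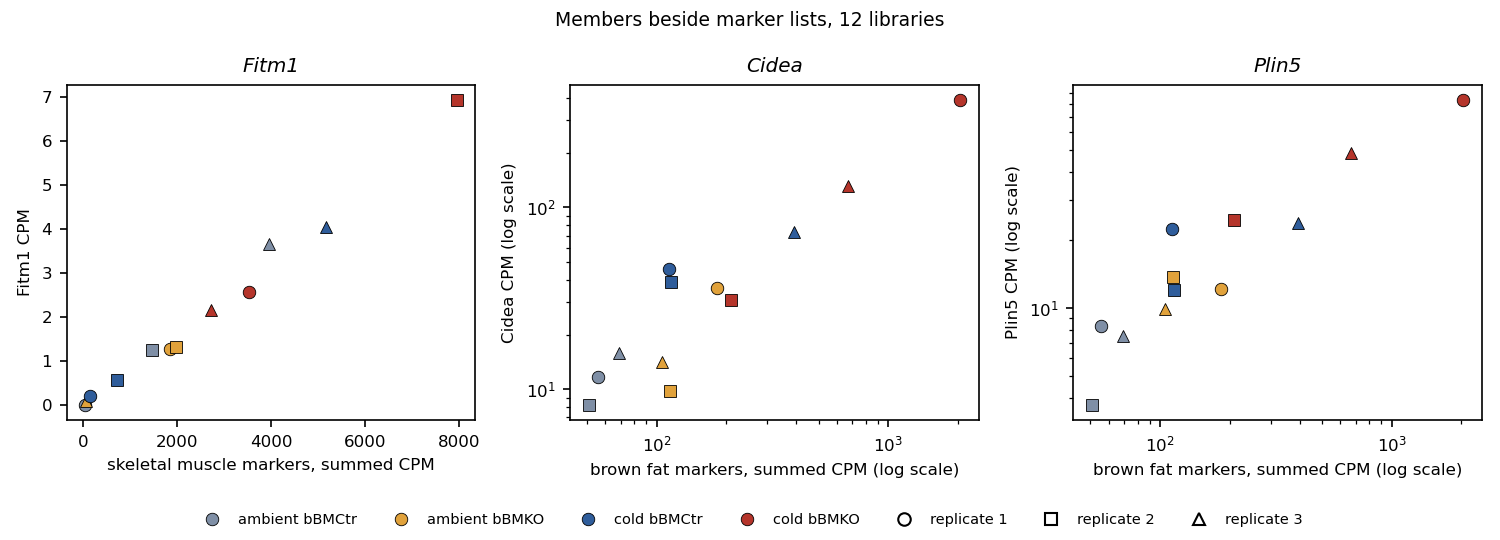
CPM of Fitm1 against the summed CPM of 12 skeletal muscle markers (linear axes), and CPM of Cidea and of Plin5 against the summed CPM of the brown fat markers (log axes), 1 point per library, colour for the group and shape for the replicate number. Fitm1 follows the muscle markers from 0 CPM at 48.8 to 6.947 CPM at 7940, and Cidea and Plin5 are highest in the library with the most brown fat marker RNA.

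Fitm1 and Fitm2 encode the FIT proteins, which bind triglyceride and are needed for droplets to leave the endoplasmic reticulum in an orderly way. Fitm1 (chromosome 14, 55575674 to 55576952), the paralog of skeletal muscle and heart, was the least abundant member, with 0 to 121 counts per library. Its CPM were 0, 1.255 and 3.662 in ambient bBMCtr, 1.272, 1.324 and 0.09228 in ambient bBMKO, 0.2012, 0.5631 and 4.055 in cold bBMCtr and 2.57, 6.947 and 2.164 in cold bBMKO. The spread within a group was as large as that between groups, and only the ambient and cold libraries of bBMKO did not overlap. No difference passed: the genotype difference was -0.87 (standard error 1.32) in ambient and 1.29 (standard error 1.25) in cold libraries, and the temperature difference was -0.03 (standard error 1.27) in bBMCtr and 2.12 (standard error 1.31, adjusted p = 0.261) in bBMKO. The signs of the ambient genotype value and of the change in bBMCtr turned without replicate 3 of ambient bBMCtr (0.48 and 1.33). With only the 2 bBMKO groups in the fit the change with cold in bBMKO passed (2.10, adjusted p = 0.12).

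The 12 skeletal muscle markers ran beside Fitm1. Their summed CPM were 48.8, 1470 and 3950 in ambient bBMCtr, 1850, 1970 and 74.6 in ambient bBMKO, 143, 723 and 5170 in cold bBMCtr and 3530, 7940 and 2720 in cold bBMKO. The library without a Fitm1 count was the one with the lowest marker sum, and the library with the most Fitm1 the one with the highest. With the mean of these markers as a covariate the difference in Fitm1 between genotypes in the cold was -0.38 in place of 1.29.

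Fitm2 (chromosome 2, 163468703 to 163472629) is the paralog of fat and most other tissues. It was at 58.36, 70.96 and 73.45 CPM in ambient bBMCtr and at 122.8, 105.9 and 112.1 CPM in ambient bBMKO. Cold libraries held 105.5, 90.24 and 119.8 CPM (bBMCtr) and 167, 157.6 and 163.9 CPM (bBMKO). No groups overlapped in the 4 comparisons, and the 3 cold bBMKO libraries lay within a ratio of 1.06. Fitm2 rose with genotype by 0.75 at ambient temperature (standard error 0.116, adjusted p = 0.00719) and by 0.63 in the cold (standard error 0.115, adjusted p = 0.00445). It also rose with cold in bBMCtr, by 0.64 (adjusted p = 0.00391). In bBMKO the change with cold was 0.52 (adjusted p = 0.00928), a fold of 1.43. The call in the cold was lost without replicate 2 of cold bBMCtr (0.51), and that with cold in bBMCtr without replicate 1 of ambient bBMCtr (0.54) or replicate 3 of cold bBMCtr (0.53), in each case through the fold minimum.

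Bscl2 (chromosome 19, 8837467 to 8848683) encodes seipin, which gathers triglyceride at the budding droplet and whose loss causes lipodystrophy in humans and mice. It was at 153.8, 166.4 and 200 CPM in ambient bBMCtr and at 318, 279.6 and 303.2 CPM in ambient bBMKO. The cold values were 261.7, 223.7 and 274 CPM for bBMCtr and 440.7, 361.1 and 452.6 CPM for bBMKO. As for Fitm2, no groups overlapped. Bscl2 rose with genotype by 0.79 at ambient temperature (standard error 0.126, adjusted p = 0.00829) and by 0.72 in the cold (standard error 0.126, adjusted p = 0.00358). Its changes with cold were 0.55 in bBMCtr (adjusted p = 0.0145) and 0.48 in bBMKO (adjusted p = 0.0204), folds of 1.46 and 1.39. The first of these passed without replicate 3 of ambient bBMCtr (0.68) or replicate 2 of cold bBMCtr (0.64). The study lists Bscl2 among genes picked on these same samples, so its direction is not independent evidence. In the GENCODE M21 annotation Bscl2 shares 398 exonic bases with Gng3 on the other strand and 239 with another gene on its own strand. Fitm2 shares 227 of its 3967 exonic bases and Fitm1 109 of its 971 with an antisense gene, and Plin4 shares 17 with Hdgfl2 on the other strand. Where counting ignored the strand, reads of the bases shared with the other strand cannot be assigned. Reads of the 239 bases that Bscl2 shares on its own strand cannot be assigned under either strand setting.

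**Figure D4:**
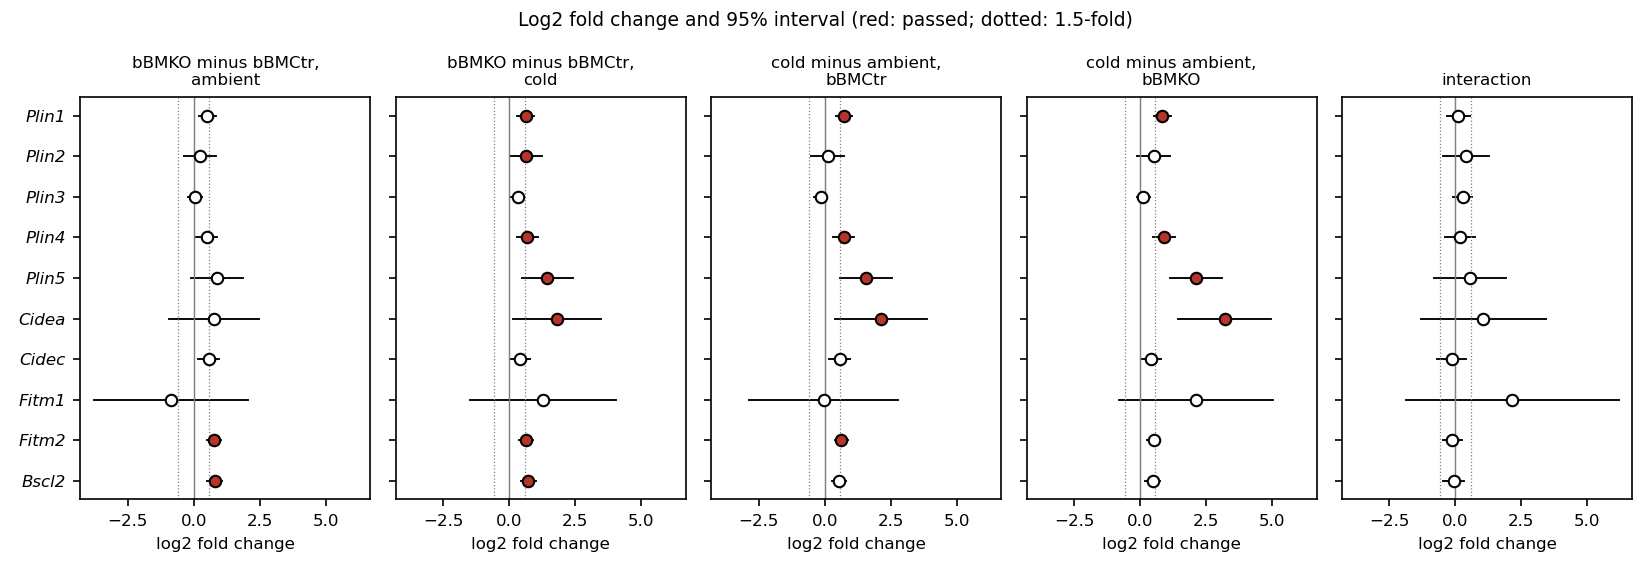
Log2 fold change (point) and its 95% interval (line) of each of the 10 genes in the 4 comparisons and the interaction, from edgeR over all 12 libraries; red points passed, and dotted lines mark 1.5-fold. Fitm2 and Bscl2 passed in both genotype comparisons, and no gene passed in the interaction.

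Between genotypes at ambient temperature, 2 of the 10 genes rose, Fitm2 and Bscl2, and none fell. Of all genes tested, 8.63% passed and 3.88% rose. Groups did not overlap, with bBMKO the higher, for 6 of the 10 (Plin1, Plin4, Plin5, Cidec, Fitm2 and Bscl2), against 13.7% of all genes. The median log2 difference of the 10 was 0.53, against -0.0094 over all genes tested and 0.45 over the 12 fat cell markers, of which 3 rose. The count was 4, with Plin1 and Cidec added, without replicate 3 of ambient bBMCtr or replicate 2 of ambient bBMKO. The median difference of the 12 lymphocyte markers was -2.1 here, and with their mean as a covariate 2 of the 10 genes passed.

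Between genotypes in the cold, 7 of the 10 rose and none fell: Plin1, Plin2, Plin4, Plin5, Cidea, Fitm2 and Bscl2. Of all genes, 22.8% passed and 9.67% rose. Groups did not overlap for 8 of the 10, with bBMKO the higher, against 29.7% of all genes. The median of the 10 was 0.66, against 0.05 over all genes and 0.52 over the fat cell markers, of which 3 of 12 rose. In this comparison all 12 lymphocyte markers fell, and their summed level was 930, 1120 and 699 CPM in bBMCtr and 45.1, 16.7 and 21.1 CPM in bBMKO. Their mean log2 CPM was 5.71 to 6.38 in cold bBMCtr and 0.109 to 1.75 in cold bBMKO. A fit with this mean as a covariate has 1 slope for all 12 libraries. That slope also rests on the ambient libraries, where the mean was 0.911 to 6.64 in bBMCtr and 0.796 to 4.87 in bBMKO. In the cold the genotypes did not overlap in this mean, and whether the slope holds there was not tested. The parts of marker level and genotype in a call lost in this fit were not tested either. With the mean of these markers as a covariate, 0 of the 10 genes passed with edgeR, against 1396 genes in all. The differences of the 7 were then 0.39 for Plin1, 0.11 for Plin2, 0.44 for Plin4, 1.43 for Plin5, 1.49 for Cidea, 0.45 for Fitm2 and 0.54 for Bscl2, and the unadjusted p was under 0.05 for Fitm2 and Bscl2 only. With the skeletal muscle markers as the covariate, 3 of the 10 passed, Plin4, Plin5 and Bscl2. The count was 2, Plin5 and Bscl2, without replicate 2 of cold bBMCtr. Under scaling by library size alone, which moved the median of all genes from 0.05 to -0.17, only Plin5 passed. Limma on the deposited log2 FPKM likewise called only Plin5.

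With cold in bBMCtr, 5 of the 10 rose and none fell: Plin1, Plin4, Plin5, Cidea and Fitm2. Of all genes, 14.8% passed and 3.48% rose. Groups did not overlap, with the cold libraries the higher, for 7 of the 10, against 13.2% of all genes, Cidec and Bscl2 being the other members. The median of the 10 was 0.60, against 0.001 over all genes and 0.58 over the 12 fat cell markers, of which 5 rose. The count was 3, Plin1, Plin4 and Plin5, without replicate 1 of ambient bBMCtr or replicate 3 of cold bBMCtr.

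With cold in bBMKO, 4 of the 10 rose and none fell: Plin1, Plin4, Plin5 and Cidea. Of all genes, 18.8% passed and 6.41% rose. Groups did not overlap for 7 of the 10, with the cold libraries the higher, against 21.2% of all genes. The median of the 10 was 0.68, against -0.02 over all genes and 0.51 over the fat cell markers, of which 5 of 12 rose. All 11 tested mammary epithelium markers fell with cold in each genotype. Temperature, sex, this epithelium and, if the stated ages hold for these libraries, age cannot be told apart in either temperature comparison. The genotype and temperature comparisons share libraries in pairs, so the agreement of one with another is not a separate observation.

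The interaction, the genotype difference in the cold minus that at ambient temperature, was positive for 7 of the 10 genes, and 0 passed with edgeR, DESeq2 or limma, against 0.766% of all genes with edgeR. None of the 10 had an unadjusted p under 0.05 with any of these tools. The values were 0.11 for Plin1 (95% interval -0.335 to 0.563), 0.19 for Plin4 (-0.376 to 0.753) and 0.56 for Plin5 (-0.811 to 1.93). For Fitm2 and Bscl2, which rose with genotype at both temperatures, the interaction was -0.12 (-0.478 to 0.241) and -0.07 (-0.461 to 0.325). The intervals of Plin1, Fitm2 and Bscl2 leave out a difference of 1.5-fold between the temperatures in either direction. Those of the other 7 do not, and the widest, that of Fitm1, ran from -1.88 to 6.19. The calls of Plin1, Plin2, Plin4, Plin5 and Cidea in the cold and not at ambient temperature are therefore not shown to be differences between the temperatures.

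**Figure D5:**
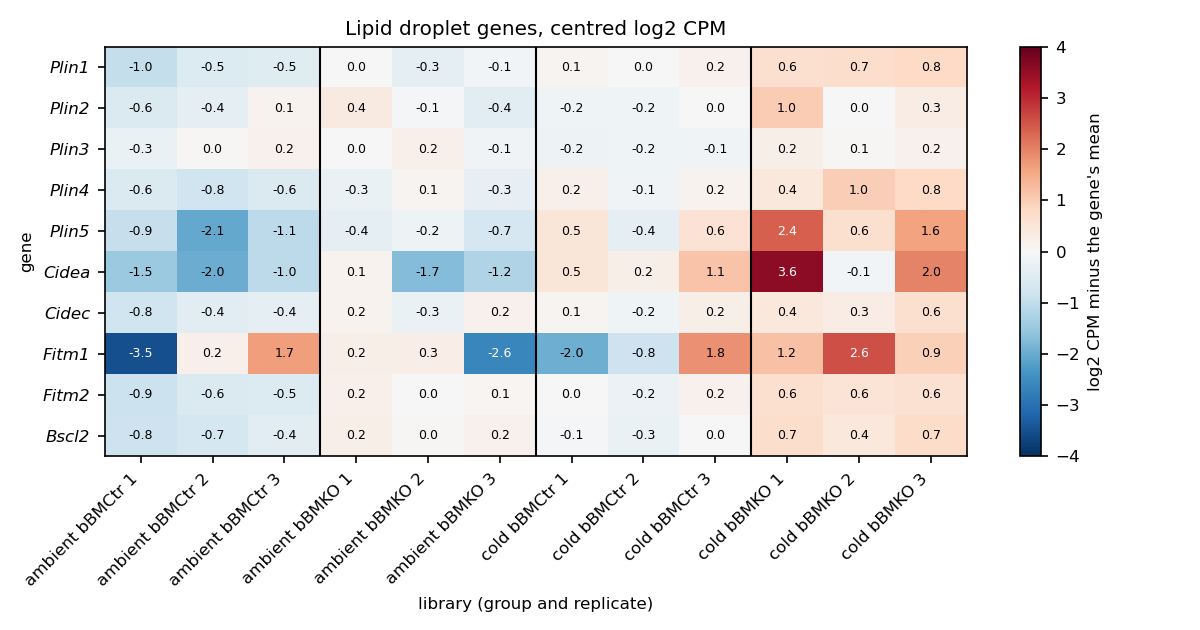
Log2 CPM (prior count 2) of the 10 genes in the 12 libraries, each gene centred on its own mean, with the value printed in each cell. On this TMM-normalized scale the highest value of every gene is in a cold bBMKO library, which does not hold for Plin3 on FPKM. The largest departures from a gene's mean are those of Fitm1, Cidea and Plin5.

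Other genes of the lipid droplet were described from a list of 33, of which 32 were tested. Between genotypes at ambient temperature 9 of the 32 rose and 1 fell, with a median difference of 0.30, where 3.88% of all genes rose and 8.63% passed. The clearest by p were Aifm2, a droplet-bound oxidoreductase that guards against lipid peroxidation, at 147 ± 25.6 CPM in bBMCtr and 306 ± 30.8 in bBMKO (log2 difference 1.06, adjusted p = 0.00272), and G0s2, an inhibitor of adipose triglyceride lipase, at 98.1 ± 16 and 199 ± 15.4 CPM (1.02, adjusted p = 0.00482). Adig, which acts with seipin in droplet assembly, Pnpla3, Mgll and Dgat1 rose by 0.87, 1.48, 0.75 and 0.72. The gene that fell was Lpcat1, an enzyme of phosphatidylcholine remodelling, by 0.64. The study also lists Adig, G0s2 and Lpin1 among genes picked on these same samples, so their directions are not independent evidence either.

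In the cold 9 of the 32 rose and 1 fell between genotypes, with a median of 0.23, where 9.67% of all genes rose and 22.8% passed. Hilpda, another inhibitor of adipose triglyceride lipase, led them by p, at 4.7 ± 0.276 CPM in bBMCtr and 16.7 ± 3.46 in bBMKO (1.83, adjusted p = 0.000183). Aifm2 rose by 1.32, Adig by 1.13, G0s2 by 1.12, Pnpla3 by 1.51 and Mgll by 0.87, and Lpcat1 fell by 0.92. With cold in bBMCtr 6 of the 32 rose and none fell: Gpat4, Lipe, Mgll, Lpin1, Pnpla2 and Cav1, by 0.59 to 0.73, against 3.48% of all genes that rose. Pnpla2, Lipe and Mgll encode the 3 lipases that take triglyceride apart in turn. With cold in bBMKO, where 6.41% of all genes rose, 9 of the 32 rose, led by Lipe (0.92), Hilpda (0.98) and Gpat4 (0.63), and Acsl3 fell by 0.71.

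The genes whose pattern was most like that of a member were found by the root mean square difference of centred log2 CPM over the 12 libraries, among 14071 genes, as a description with no test. For Plin1 the nearest was Lipe, hormone-sensitive lipase, at 0.102, followed by Dram1, Fabp4, Cnnm2 and Pla2g12a, up to 0.118. For Plin5 they were Cox8b at 0.422, E330011O21Rik, Ctcflos, A530053G22Rik and Acadm. For Cidea they were Otop1 at 0.484, Cpt1b, Acot11, Plin5 at 0.705 and Cox7a1. Cox8b and Cox7a1 also belong to the brown fat list above. For Fitm1 they were Jsrp1 at 0.234, Kcna7, Nctc1, Asb11 and Prr33, at most 0.312 away from a gene whose own SD over the libraries was 1.88. Fitm2 and Bscl2 stood among the 5 nearest genes of each other, at 0.0926. These 12 libraries share the group structure, so likeness reflects the groups as well as the spread within them.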

How the data were processed

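RNA from iWAT was sequenced as single reads of 51 cycles in 12 libraries, 4 groups of 3. The authors used STAR on mm10 and then HTSeq-count with GENCODE genes, and the deposited counts are raw. The deposited log2 values were made by the authors as log2(FPKM + 0.1), over a library total 1.41 to 1.54 times the summed counts. The sources used here give neither tool versions nor the strand setting. The submitters' processing notes also name DESeq2, edgeR and limma.

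After a filter (FPKM above 0.1 in 50% or more of the libraries, 15413 of 24091 genes), counts were normalized by TMM and tested with glmQLFit and glmQLFTest of edgeR 4.0.16 in R 4.3.3, all 12 libraries together and 1 term per group. Genes passed with a fold change above 1.5, p under 0.05 and Benjamini-Hochberg adjusted p under 0.25, as in the study's methods. Libraries held 17887795 to 21436282 counts (median 19481002.5). Log2 CPM used a prior count of 2.

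Alternatives were DESeq2 1.42.0, RLE factors, library size alone, other filters, only the 2 compared groups, a replicate block, limma 3.58.1 with the log2 FPKM values, marker means as covariates, an adjusted p under 0.05 with no fold minimum, and each library left out in turn. In simulated data for the ambient genotype comparison (15413 genes), edgeR called 29.85% of 67 genes given a 1.5-fold change (the minimum for a call itself), 67.16% of 67 given a 2-fold one, 89.39% of 66 given a 4-fold one and 21 of 15213 left as they were. Apart from the set changes, each gene was drawn independently around 1 mean for all libraries. The simulation thus holds no variation shared between genes, such as that of the lymphocyte and muscle markers, and its rates need not hold here. No pair of libraries was a duplicate (chi-square per gene of 16.02 or more). The members, gene lists and tests were chosen with earlier results of these data known. The text names all 10 members, up to 6 further droplet genes per comparison by the smallest p among those that passed, and the 5 nearest genes of Plin1, Plin5, Cidea and Fitm1. Lpcat1 and Acsl3, outside that rule, were named after their values were seen. Sequences are from RefSeq.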

Additional observations from a re-analysis of the deposited data

Results flagged for a closer look

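The effect of genotype on Hilpda, an inhibitor of adipose triglyceride lipase from the list of further droplet genes, differed between the temperatures by the thresholds used here. Hilpda was at 6.12 ± 1.02 CPM (SD, n = 3) in ambient bBMCtr and 8.48 ± 0.718 CPM in ambient bBMKO, and at 4.7 ± 0.276 CPM in cold bBMCtr and 16.7 ± 3.46 CPM in cold bBMKO. The genotype difference was 0.47 on the log2 scale in the ambient libraries (adjusted p = 0.158) and 1.83 in the cold ones (adjusted p = 0.000183). The interaction was 1.36 (standard error 0.242, adjusted p = 0.0812, edgeR's quasi-likelihood test). Temperature and sex, and age if it differed as stated, cannot be told apart in it. The lymphocyte markers differed between genotypes in the cold, and their part in it was not tested. Among the 10 members and the 32 further genes tested, only Hilpda passed in the interaction. The alternative settings were run on the members alone, so the Hilpda value was checked under none of them.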

How the results depend on the processing

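Of 810 values of a member in a comparison under an alternative, 725 kept their direction and side of the threshold, 48 no longer passed, 18 newly passed and 19 changed sign. None of those 19 had passed before. Counts of members that passed moved in the cold genotype comparison: from 7 to 1 with library size alone, 1 with limma on log2 FPKM, 3 with the skeletal muscle covariate and 0 with the lymphocyte covariate. Leaving out each library gave counts of 2 to 4 (ambient genotype), 2 to 6 (cold genotype), 3 to 7 (cold in bBMCtr), 4 to 5 (cold in bBMKO) and 0 to 0 (interaction). With library size alone the Plin3 differences were -0.072 (ambient genotype) and -0.030 (cold in bBMKO). With limma, Plin3 was at -0.027 (ambient genotype) and Fitm1 at 0.17 (cold in bBMCtr). With the lymphocyte covariate Plin3 was at -0.046 (ambient genotype) and Fitm1 at -2.54 (cold genotype), and with the muscle covariate Fitm1 was at -0.38 (cold genotype). Over the libraries left out in turn, values that changed sign ran from -0.084 to 0.14 (Plin3) and -1.47 to 0.48 (Fitm1) between ambient genotypes, from -0.034 to 0.37 (Plin2) and -2.06 to 1.33 (Fitm1) with cold in bBMCtr, and in the interaction from -0.0185 to 0.24 (Plin1), -0.13 to 1.79 (Cidea) and -0.22 to 0.027 (Bscl2). The cause of these changes was not tested.

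With the replicate number as a block, 3, 5, 5, 4 and 0 members passed in the same order of comparisons. Plin5 newly passed between ambient genotypes (1.01, adjusted p = 0.187 by edgeR), and Plin2 (0.60) and Cidea (1.30) no longer passed between genotypes in the cold. Same-numbered libraries of different groups correlated at -0.699 to 0.447 (median 0.0172 over 18 pairs, 6 above 0.1). Libraries of different number correlated at -0.57 to 0.618 (median 0.00319 over 36 pairs). These values show no pairing by number, and with 3 libraries per group they could not exclude one.

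Several members lay close to the minimum of 1.5-fold, so their calls turn on small differences. Fitm1 had 0 to 121 counts per library, and its values carry the largest standard errors among the members.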
